A study of Mus musculus with 8 samples.

Results

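A set of 10 transcription factor genes that steer blood progenitors towards the erythroid, megakaryocytic or granulocytic lineages were followed across the RNA sequencing libraries of the series. They were chosen by name, as the rows of the deposited table for Gata1, Gata2, Klf1, Tal1, Spi1, Cebpa, Cebpe, Gfi1, Gfi1b and Runx1, and all 10 were found among the 56748 genes listed. Of these 10, 8 passed the filter for testing, a level of 1 FPKM or more in 2 or more of the 8 libraries and Cebpa and Gfi1 did not. FPKM is the number of fragments on a gene for its length and for the sequencing depth of the library.

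The cells were 32D, a mouse myeloblast-like bone marrow line that depends on interleukin-3 (IL-3). All carried transduced murine Jak2WT or Jak2V617F, the activating kinase mutation of myeloproliferative neoplasms. In each background, clones with intact glucose transporters (GLUT1/3 WT) were set beside clones in which Slc2a1 (GLUT1) and Slc2a3 (GLUT3) had both been cut with Cas9 (GLUT1/3 dKO). All groups were kept for 24 h in medium that held glucose at 5 mM, glutamine at 1 mM and IL-3 at 2 ng/ml. Each of the 4 groups had 2 libraries, each from 1 single-cell clone numbered 1 or 3, so that a difference between groups also holds whatever differs between these few clones. The same number in 2 groups does not mark a shared clone.

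GATA1 and GATA2 bind the same DNA motif, and GATA2 is known to be replaced by GATA1 at shared sites as red cell precursors mature. GATA1 works with TAL1, LMO2 and LDB1 in an activating complex and with the repressor GFI1B, and KLF1 drives globin and red cell membrane genes. On the other side, PU.1 (encoded by Spi1) and the C/EBP factors drive granulocyte and monocyte genes, C/EBPα at their onset and C/EBPε in late granulocyte maturation, and GATA1 and PU.1 are known to antagonise each other. RUNX1 is used in both arms and in megakaryocytes.

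The 8 libraries held between 16846011 and 48884329 reads on genes, recovered from the deposited values. Slc2a1 fell in the dKO clones of both backgrounds (limma, adjusted p = 0.000444 in Jak2V617F and 0.000872 in Jak2WT) and Slc2a3 fell in Jak2V617F (adjusted p = 0.0115), whereas in Jak2WT it stood at 16.0 and 49.5 FPKM in the dKO clones against 97.7 and 91.9 (adjusted p = 0.0612). Of 8 markers of 32D progenitors, 5 passed the filter, led by the IL-3 receptor chains Csf2rb and Csf2rb2, while Kit was listed at 0 throughout and Cd34 and Mpo lay under 0.1 FPKM. Their summed level ran from 455.5 to 513.8 FPKM in Jak2WT GLUT1/3 WT, from 356.7 to 442.5 in Jak2WT dKO, from 340.7 to 350.8 in Jak2V617F GLUT1/3 WT and from 155.0 to 156.4 in Jak2V617F dKO. Of the 5, 3 fell and 1 rose with dKO in Jak2V617F, where 16.2% of all tested genes fell and 13.7% rose, and the 1 that rose, Spn, lost its call in 8 of 16 alternatives. The part of these differences in the results below was not tested. None of 10 lymphoid markers exceeded 0.708 FPKM, and 5 of them, Ms4a1, Ncr1, Gata3, Ebf1 and Tbx21, were at 0 in every library.

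Promoter sequences of 8 of the 10 genes were found in the RefSeq table (GRCm38.p6), in 12 windows of 250 bases before an annotated start, and Spi1 and Cebpe had no entry. Those of Gata1 and Gfi1b are shown because the levels of these genes ran together across the libraries (below), and that of Klf1 because its level did not follow them. Each is given 5′ to 3′ on the strand of its gene, up to the first base that the GENCODE annotation places in an exon, and each matched GRCm39 at 1 place on its chromosome. The window of Gata1, chrX:7834197-7834399 on the minus strand, lies in an intron of the gene as the files delimit it, between an upstream start and the RefSeq start. Those of Gfi1b, chr2:28511995-28512244 on the minus strand, and Klf1, chr8:85628361-85628556 on the plus strand, end next to the first base of the gene in the files. Capitals mark matches to GATAA, the core of the GATA motif, and to CCNCNCCC, the core of the KLF1 motif, on either strand. The 2 motifs did not overlap in these windows.
Gata1: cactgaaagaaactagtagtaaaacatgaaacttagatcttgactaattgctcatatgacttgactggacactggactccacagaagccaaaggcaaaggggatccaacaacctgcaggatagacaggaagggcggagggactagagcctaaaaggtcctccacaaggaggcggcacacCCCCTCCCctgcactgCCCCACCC
Gfi1b: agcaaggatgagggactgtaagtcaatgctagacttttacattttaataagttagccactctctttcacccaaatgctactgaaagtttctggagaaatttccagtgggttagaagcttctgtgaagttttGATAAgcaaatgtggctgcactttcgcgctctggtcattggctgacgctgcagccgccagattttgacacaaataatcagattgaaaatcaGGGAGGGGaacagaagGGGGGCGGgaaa
Klf1: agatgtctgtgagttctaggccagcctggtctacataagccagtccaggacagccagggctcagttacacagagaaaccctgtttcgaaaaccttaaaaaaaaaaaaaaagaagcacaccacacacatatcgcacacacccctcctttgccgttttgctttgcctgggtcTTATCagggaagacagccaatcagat

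Over the full 250 bases before the RefSeq start, Gata1 held 3 matches to CCNCNCCC, beginning 71, 55 and 34 bases before it, the last in bases not printed because an annotated exon covers them. Gfi1b held 2, at 28 and 12 bases, and Klf1 held none. A match to GATAA began 119 bases before the start of Gfi1b and 80 bases before that of Klf1, and 1 of the 2 Tal1 windows held one as well, while the Gata1 window held none. Such matches are common, since 22.6% of the 32817 promoter windows in the table held GATAA and 45.9% held CCNCNCCC. GAGGAA, the core of the PU.1 motif, was found in the window of Gata1 and in 1 of 2 each for Tal1 and Runx1, against 23.3% of all windows. CAGATG, bound by TAL1 with E proteins, and TGTGGT, bound by RUNX1, were each matched only in the Klf1 window among these genes, against 14.5% and 14.0% of all windows.

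In the Jak2WT clones with intact transporters the order of the 8 expressed genes was clear, with no overlap between neighbours. Gata2 stood at 123 and 124 FPKM, followed by Tal1 at 68.3 and 66.9, Cebpe at 44.2 and 41.9, Gfi1b at 31.4 and 31.7, Gata1 at 30.9 and 28.8, Spi1 at 16.5 and 17.6, Klf1 at 12.4 in both and Runx1 at 10.5 and 10.1. In Jak2V617F dKO clones the order had changed most for Cebpe, which went from the third place to the last with 4.20 and 6.80 FPKM. There, Tal1 (149 and 132) overlapped with Gata2 (162 and 119), and Gfi1b (51.1 and 39.5) overlapped with Gata1 (41.1 and 34.0). Klf1 (23.6 and 18.3) lay above Spi1 (11.1 and 14.4), and Spi1 above Runx1 (9.92 and 8.55).

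**Figure D1:**
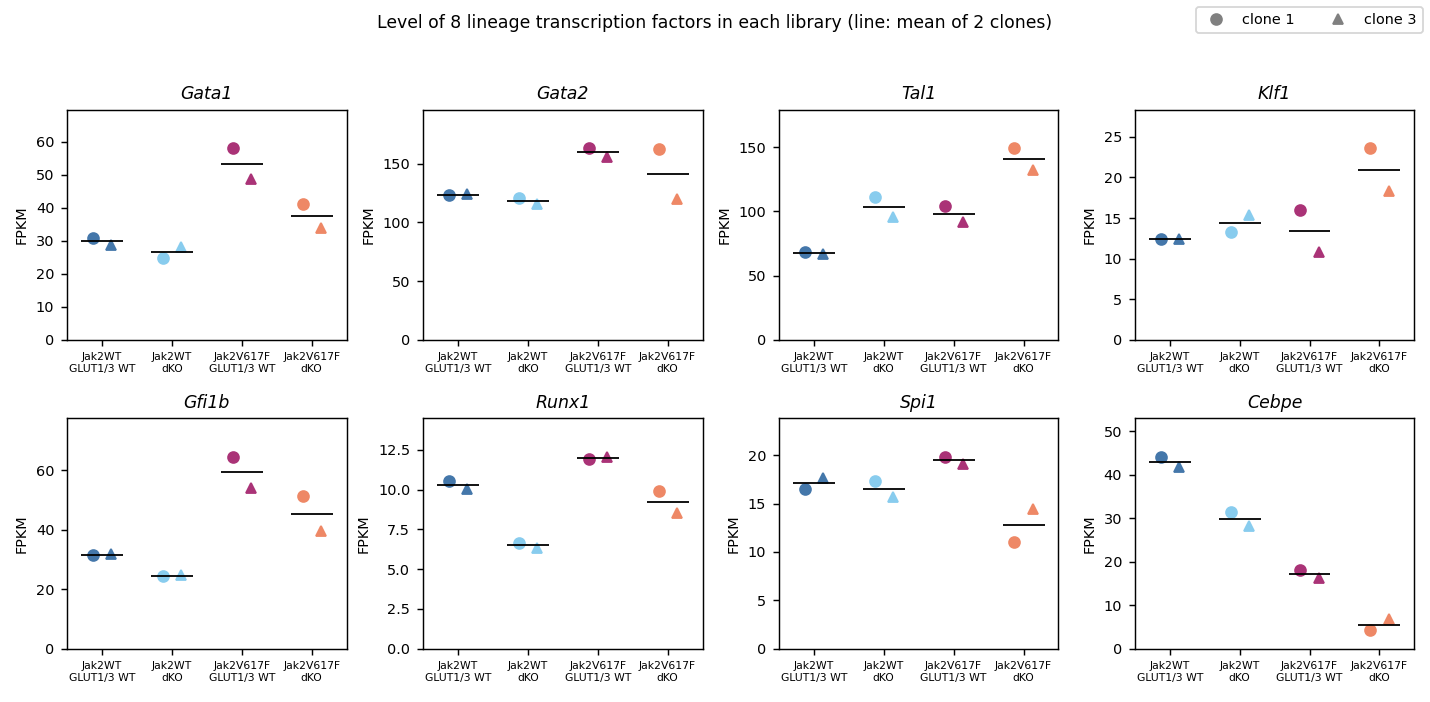
Level in FPKM (vertical axes, from 0, each on its own scale) of 8 lineage transcription factor genes in the 8 libraries, with 1 point per clone and a line at the mean of the 2 clones of each group. Cebpe steps down from 44.2 and 41.9 FPKM in Jak2WT GLUT1/3 WT to 4.20 and 6.80 in Jak2V617F dKO, while Gata1 and Gfi1b peak in Jak2V617F GLUT1/3 WT.

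Cebpa, the factor that starts granulocytic commitment, had no read in any library. With 3 reads as the limit that a count of 0 allows, its level could be at most 0.0231 to 0.0656 FPKM, depending on the depth of the library, for counting error only. Gfi1, the paralog of Gfi1b, encodes a repressor that acts in granulocyte precursors. It had 11 and 1 reads in Jak2WT GLUT1/3 WT, 2 and 4 in Jak2WT dKO and none in the 4 Jak2V617F libraries. Its highest level was 0.0872 FPKM, so that no comparison was made.

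In the coordinates of the deposited table (mm39), Cebpe spans chr14:54947817-54949631 on the minus strand, Spi1 chr2:90912735-90946101 on the plus strand and Runx1 chr16:92398354-92623037 on the minus strand. Gata1 spans chrX:7825499-7844310 and Gfi1b chr2:28499462-28511994, both on the minus strand, and Klf1 spans chr8:85628557-85631924, Tal1 chr4:114913623-114928952 and Gata2 chr6:88170873-88184014, all on the plus strand. The levels of these 8 genes rested on 181 reads (Cebpe in Jak2V617F dKO clone 1) to 30739 reads (Gata2).

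The first comparison was between Jak2V617F and Jak2WT with the transporters intact. Gata1, Gfi1b and Tal1 were higher and Cebpe was lower in Jak2V617F, and Gata2, Klf1, Spi1 and Runx1 did not pass the test. Thus 3 of 8 tested genes were higher, where 15.3% of all 11818 tested genes were called higher, and 1 of 8 was lower, where 14.9% were called lower, and the median log2 difference of the 8 was 0.28 beside 0.01 for all tested genes. All tests were made with limma on log2(FPKM + 1) over all tested genes and both clones of each group (n = 2), with Benjamini-Hochberg adjustment and a threshold of 0.05. Fold values are for FPKM + 1 and so lie somewhat nearer to 1 than ratios of the FPKM themselves. Where a gene is near or under 1 FPKM in one of the groups, a difference on this scale depends on the 1 FPKM added and lies far under the ratio of the FPKM values themselves, so such differences are not compared in size. In bulk RNA, fewer cells of one kind and less RNA per cell cannot be told apart.

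Gata1 was at 58.1 and 48.7 FPKM in Jak2V617F against 30.9 and 28.8 in Jak2WT. Both mutant clones lay above both wild-type clones, and the difference was 0.81 on the log2 scale (SE 0.13, adjusted p = 0.00423), or 1.76-fold (95% confidence interval 1.43 to 2.16). Its repressor partner Gfi1b went with it, at 64.5 and 54.1 FPKM against 31.4 and 31.7, a difference of 0.88 (SE 0.13, adjusted p = 0.00371). Tal1, which binds next to GATA1 through LMO2, stood at 104 and 91.7 FPKM against 68.3 and 66.9, with no overlap and a difference of 0.53 (SE 0.11, adjusted p = 0.0122). Without one of the Jak2WT GLUT1/3 WT clones or Jak2V617F GLUT1/3 WT clone 1, the call for Tal1 was lost, at adjusted p between 0.0602 and 0.0724.

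Gata2, which keeps progenitors and mast cells, was at 163 and 156 FPKM against 123 and 124. The groups did not overlap, but the difference of 0.37 did not pass the test (SE 0.14, adjusted p = 0.0806), except without one of the Jak2V617F dKO clones (0.0131 and 0.0132) or in a fit of only these groups (0.0282). Cebpe went the other way, with 18.0 and 16.3 FPKM in Jak2V617F against 44.2 and 41.9 in Jak2WT, and the difference was -1.28 (SE 0.18, adjusted p = 0.00265), or 0.412-fold (0.309 to 0.549). Spi1, at 19.8 and 19.1 FPKM against 16.5 and 17.6, did not pass the test (0.18, 95% confidence interval -0.11 to 0.47, adjusted p = 0.301). Klf1 stood at 16.0 and 10.8 FPKM against 12.4 in both wild-type clones, which lay between the mutant clones, and the interval of its difference ran from -0.35 to 0.52 (adjusted p = 0.773). Runx1 was at 12.0 and 12.1 FPKM against 10.5 and 10.1 (0.20, SE 0.088, adjusted p = 0.122).

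Next, the effect of losing both transporters was followed in Jak2V617F cells, in which glucose uptake had been the question of the study. Klf1 and Tal1 rose in dKO clones, Gata1, Spi1, Cebpe and Runx1 fell, and Gata2 and Gfi1b did not pass the test. Hence 2 of 8 rose, where 13.7% of all tested genes did, and 4 of 8 fell, where 16.2% did, with a median of -0.37 beside -0.02 for all tested genes. This comparison shares the Jak2V617F GLUT1/3 WT libraries with the one above, so the values of the 2 comparisons are not independent.

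Cebpe fell the furthest of the 8, from 18.0 and 16.3 FPKM to 4.20 and 6.80. The fall was by 1.51 on the log2 scale (SE 0.18, adjusted p = 0.00144), or 0.351-fold for FPKM + 1 (0.264 to 0.468). Spi1 fell from 19.8 and 19.1 FPKM to 11.1 and 14.4, by 0.59 (SE 0.12, adjusted p = 0.0124). Both genes of the granulocytic arm were thus lower, with no overlap between clones. Without Jak2V617F GLUT1/3 WT clone 1, Spi1 no longer passed (adjusted p = 0.0589).

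Within the erythroid arm the genes moved in different directions. Gata1 fell from 58.1 and 48.7 FPKM to 41.1 and 34.0, by 0.50 (SE 0.13, adjusted p = 0.0246), while Klf1 rose from 16.0 and 10.8 FPKM to 23.6 and 18.3, by 0.62 (SE 0.19, adjusted p = 0.0418). In both genes the clones of the 2 groups did not overlap. The fall of Gata1 was lost without Jak2V617F GLUT1/3 WT clone 1 (adjusted p = 0.118) or dKO clone 3 (adjusted p = 0.0999). The rise of Klf1 was lost in 9 of 16 alternatives, among them leaving out Jak2V617F GLUT1/3 WT clone 3 (adjusted p = 0.161) or dKO clone 1 (adjusted p = 0.175), or any 1 of the 4 Jak2WT libraries (0.0609 to 0.0675).

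Tal1 rose from 104 and 91.7 FPKM to 149 and 132, by 0.52 (SE 0.11, adjusted p = 0.0137), a call that did not hold without Jak2V617F GLUT1/3 WT clone 3 (0.0627) or dKO clone 1 (0.0602). Gfi1b stood at 51.1 and 39.5 FPKM after 64.5 and 54.1, below both intact clones, with a difference of -0.39 that did not pass the test (SE 0.13, adjusted p = 0.0657), and passed it without dKO clone 1 (-0.57, adjusted p = 0.0201). For Gata2, the dKO clones stood apart from each other at 162 and 119 FPKM, and the groups overlapped (adjusted p = 0.315), whereas without dKO clone 1 the difference passed (-0.41, adjusted p = 0.0234). Runx1 fell from 12.0 and 12.1 FPKM to 9.92 and 8.55, by 0.35 (SE 0.088, adjusted p = 0.0236), and this call was lost without either Jak2V617F GLUT1/3 WT clone or without dKO clone 3 (0.0782 to 0.0791), and with libraries scaled to equal summed FPKM (0.0698). In a fit of only these 2 groups Gata1, Klf1, Tal1, Spi1 and Runx1 did not pass (0.0558 to 0.122), and without a filter Gata1 (0.0720) and Klf1 (0.127) did not.

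**Figure D2:**
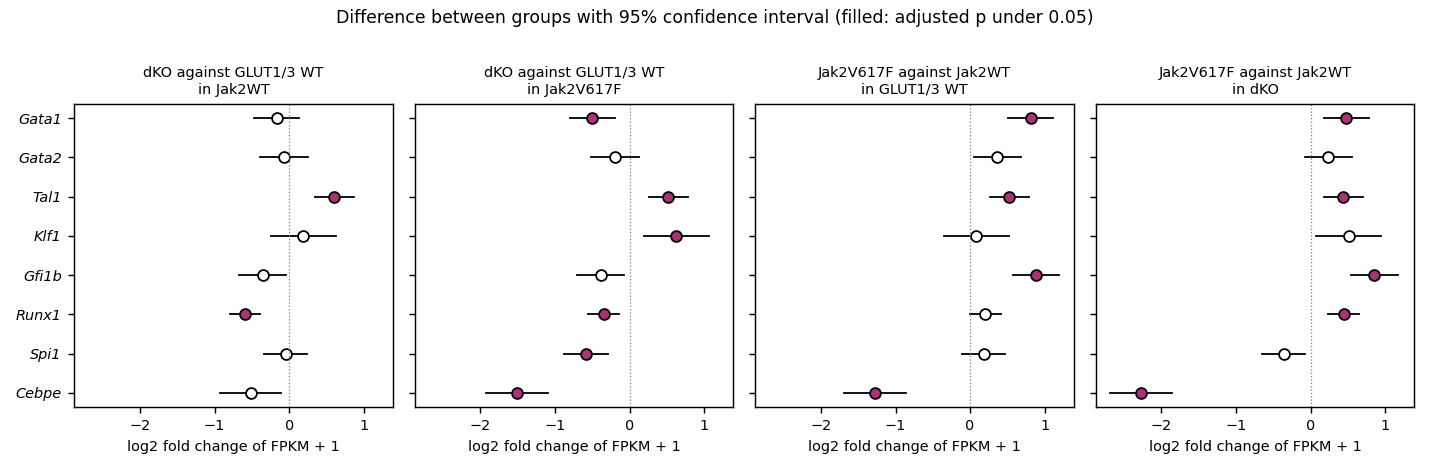
Difference of log2(FPKM + 1) between groups (horizontal axes) with its 95% confidence interval for the 8 tested genes in 4 comparisons, filled where the adjusted p is under 0.05. Cebpe lies furthest from 0 in 3 of the 4 comparisons, at -1.51, -1.28 and -2.27, and Tal1 lies to the right and is filled in all 4.

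In Jak2WT cells Tal1 rose and Runx1 fell with the loss of both transporters, which is 1 of 8 in each direction, where 7.62% of all tested genes rose and 6.06% fell, with a median of -0.12 beside 0.01. Tal1 went from 68.3 and 66.9 FPKM to 111 and 95.6, by 0.60 (SE 0.11, adjusted p = 0.0171). Runx1 went from 10.5 and 10.1 FPKM to 6.67 and 6.32, a fall by 0.59 (SE 0.088, adjusted p = 0.00957), or 0.663-fold for FPKM + 1 (0.575 to 0.766). The clones of both genes lay well apart, but neither call held when any 1 of the 4 Jak2WT libraries was left out, with adjusted p between 0.0512 and 0.103 for Tal1 and between 0.0560 and 0.0795 for Runx1, and that of Tal1 was also lost without a filter (0.0566).

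Cebpe was at 31.5 and 28.1 FPKM in Jak2WT dKO clones against 44.2 and 41.9, with no overlap, and its difference of -0.52 missed the threshold (SE 0.18, adjusted p = 0.0937). It passed in 4 of 16 alternatives, among them with voom on the recovered reads (adjusted p = 0.00913). Gfi1b was at 24.3 and 24.6 FPKM against 31.4 and 31.7, also without overlap, and missed it as well (-0.36, SE 0.13, adjusted p = 0.119), though it passed in 3 alternatives. Gata1 (24.9 and 28.2 FPKM), Gata2 (120 and 116), Klf1 (13.3 and 15.4) and Spi1 (17.4 and 15.7) had intervals that included 0 and adjusted p of 0.417 or more.

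Whether the effect of dKO differed between the backgrounds was tested as an interaction. Cebpe was the 1 gene of the 8 to pass, where 4.72% of all tested genes had a larger and 5.91% a smaller log2 change in Jak2V617F. Its log2 change with dKO was lower by 0.99 in Jak2V617F than in Jak2WT (95% confidence interval of the difference -1.58 to -0.40, SE 0.25, adjusted p = 0.0484). This call stood just under the threshold and held in 3 of 15 alternatives, and without 6 of the 8 libraries it was lost (adjusted p 0.0803 to 0.161). For Spi1 the difference was -0.54 (SE 0.17, adjusted p = 0.0889, and 0.0257 without Jak2V617F dKO clone 3). For Tal1, called higher with dKO in both backgrounds, it was -0.09 with an interval from -0.46 to 0.28 (adjusted p = 0.752), and for Gata1, called in Jak2V617F and not in Jak2WT, it was -0.33 with an interval from -0.75 to 0.09 (adjusted p = 0.258).

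The last comparison was between the backgrounds within dKO clones. Gata1, Gfi1b, Tal1 and Runx1 were higher in Jak2V617F, 4 of 8 where 7.12% of all tested genes were, and Cebpe was lower, 1 of 8 where 9.96% were, with a median of 0.44 for the 8 beside -0.02 for all tested genes. Cebpe stood at 4.20 and 6.80 FPKM against 31.5 and 28.1, a difference of -2.27 (SE 0.18, adjusted p = 0.000503), or 0.207-fold (0.155 to 0.276). Gfi1b, at 51.1 and 39.5 FPKM against 24.3 and 24.6, was higher by 0.85 (SE 0.13, adjusted p = 0.00694), and Runx1, at 9.92 and 8.55 against 6.67 and 6.32, by 0.45 (SE 0.088, adjusted p = 0.0155). The call for Gfi1b just failed without Jak2WT dKO clone 1 (0.0521), and that for Runx1 failed without either Jak2WT dKO clone or Jak2V617F dKO clone 1 (0.0578 to 0.0897).

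Gata1, at 41.1 and 34.0 FPKM against 24.9 and 28.2, was higher by 0.48 (SE 0.13, adjusted p = 0.0418), and Tal1, at 149 and 132 against 111 and 95.6, by 0.44 (SE 0.11, adjusted p = 0.0364). Both calls were lost without any 1 of the 4 Jak2WT libraries or without Jak2V617F dKO clone 1, at adjusted p between 0.0724 and 0.213 for Gata1 and between 0.0666 and 0.178 for Tal1. In a fit of only these groups Gata1, Tal1 and Runx1 did not pass (0.0683 to 0.0832), and without a filter Gata1 (0.108) and Tal1 (0.0891) did not. Klf1, at 23.6 and 18.3 FPKM against 13.3 and 15.4 (0.51, SE 0.19, adjusted p = 0.105), and Spi1, at 11.1 and 14.4 against 17.4 and 15.7 (-0.36, SE 0.12, adjusted p = 0.0904), had clones apart and did not pass. Gata2 overlapped between the groups (adjusted p = 0.276). Without Jak2V617F dKO clone 3, Spi1 (-0.54, adjusted p = 0.0162) and Gata2 (0.46, adjusted p = 0.0211) passed, as did Klf1 without either Jak2V617F GLUT1/3 WT clone (0.0487 and 0.0492).

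Ratios of FPKM within a library compare 2 factors without a change of scale between libraries. Those to Cebpe also carry the differences of Cebpe given above and are not separate results. The ratio of Gata1 to Spi1 was between 1.44 and 1.87 in the 4 Jak2WT libraries and between 2.35 and 3.72 in the 4 Jak2V617F libraries, so that the backgrounds did not overlap. Gata1 to Cebpe ran from 0.688 to 1.00 in Jak2WT, was 3.23 and 2.99 in Jak2V617F GLUT1/3 WT, and reached 9.80 and 5.00 in Jak2V617F dKO. Klf1 to Cebpe was higher in each next group, at 0.280 and 0.297, then 0.422 and 0.547, then 0.890 and 0.663, and lastly 5.63 and 2.69. Gata1 to Gata2 was lowest in Jak2WT dKO clone 1 at 0.207 and highest in Jak2V617F GLUT1/3 WT clone 1 at 0.356, and in Jak2V617F dKO clones it was 0.253 and 0.285. The highest Jak2WT value of this ratio, 0.251 in GLUT1/3 WT clone 1, lay just under the lower of these.

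**Figure D3:**
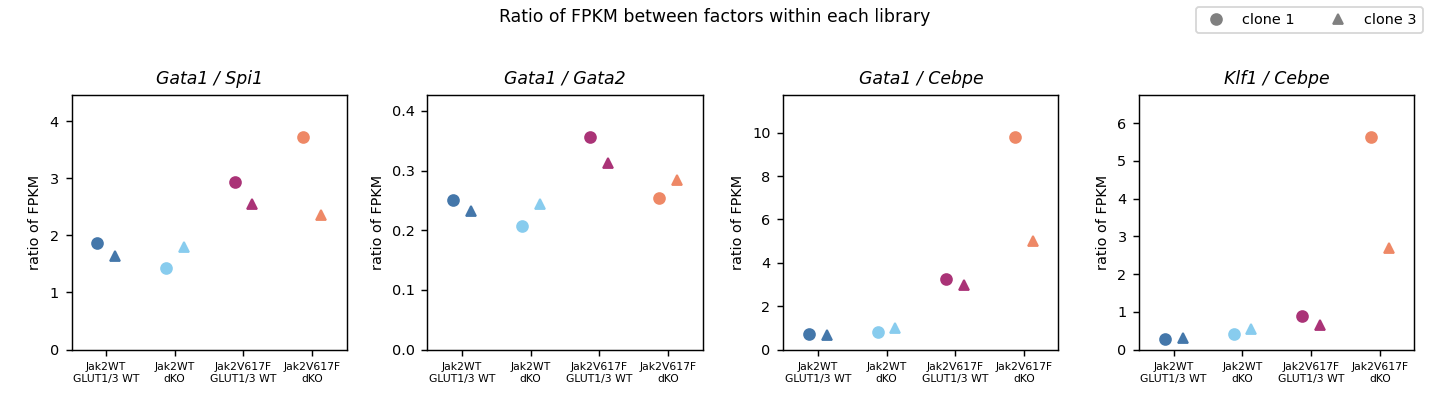
Ratio of FPKM between 2 factors (vertical axes, from 0) in each of the 8 libraries, with 1 point per clone. Jak2WT and Jak2V617F libraries do not overlap in any of the 4 ratios, but for Gata1 to Gata2 they nearly meet (0.251 and 0.253). Klf1 to Cebpe spans from 0.280 to 5.63.

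Across the 8 libraries, which fall into 4 groups of 2 and so are not 8 independent points, Gfi1b ran closest to Gata1 (Pearson's r = 0.97 on log2(FPKM + 1)), with Gata2 at r = 0.90 to Gata1. Runx1 ran with Gfi1b (r = 0.82), Gata1 (r = 0.78) and Gata2 (r = 0.72). Tal1 and Klf1 formed another pair (r = 0.80), and Cebpe ran against Tal1 (r = -0.87) and Klf1 (r = -0.80), as did Spi1 against Klf1 (r = -0.81). Spi1 and Gata1 showed little relation (r = 0.17). Among all tested genes, the 5 most like Gata1 were Lat (r = 0.994, from 2.07 to 8.07 FPKM), Stat3 (r = 0.984), Laptm5 (0.983), Tbcd (0.982) and Slco2b1 (0.979). Those most like Spi1 were Mfsd1 (r = 0.984, from 32.8 to 53.6 FPKM), Adm2 (0.983), Rprd2 (0.982), Prorp (0.980) and Pip5k1a (0.977).

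Of 15 partners of these factors, 14 were tested, and Lmo2, the bridge between TAL1 and the GATA factors, differed the most. It was at 6.77 and 7.69 FPKM in Jak2WT GLUT1/3 WT, 17.9 and 18.9 in Jak2WT dKO, 31.9 and 27.5 in Jak2V617F GLUT1/3 WT and 70.7 and 72.0 in Jak2V617F dKO. Each step was without overlap. It rose with dKO by 1.24 in either background (SE 0.098, adjusted p = 0.000459 in Jak2V617F and 0.00162 in Jak2WT) and was higher by 1.90 with Jak2V617F among intact clones (adjusted p = 8.85e-05) and by 1.90 among dKO clones (adjusted p = 0.00016). These 4 calls held in all 16 alternatives.

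Zfpm1, the GATA1 cofactor FOG1, was at 277 and 225 FPKM in Jak2V617F GLUT1/3 WT against 84.7 and 87.4 in Jak2WT GLUT1/3 WT, higher by 1.53 (SE 0.12, adjusted p = 0.000438). Among dKO clones it was at 207 and 182 FPKM against 106 and 97.9, higher by 0.92 (adjusted p = 0.00345). Cbfa2t3, the corepressor ETO2 of the TAL1 complex, stood out in the same group, at 80.7 and 69.3 FPKM against 38.2 to 45.8 in the other 6 libraries. It was higher there than in Jak2WT by 0.94 (SE 0.096, adjusted p = 0.000979) and fell with dKO in Jak2V617F by 0.72 (adjusted p = 0.00217). Rcor1, which works with GFI1B and the demethylase Kdm1a, fell with dKO in Jak2V617F by 0.56 (SE 0.085, adjusted p = 0.00374). It also fell in Jak2WT (-0.36, SE 0.085, adjusted p = 0.0348). Cbfb, the binding partner of RUNX1, rose with dKO in Jak2V617F, from 56.1 and 51.9 FPKM to 72.5 and 71.2 (0.41, SE 0.075, adjusted p = 0.00762). In Jak2WT it rose as well, from 64.8 and 65.4 FPKM to 81.0 and 83.6 (0.33, SE 0.075, adjusted p = 0.0299). Runx1 fell in both backgrounds. The Jak2WT calls of Rcor1 and Cbfb each held in 11 of 16 alternatives. In all, 3 of 14 partners rose and 4 fell with dKO in Jak2V617F, 2 rose and 1 fell in Jak2WT, 5 were higher and 3 lower with Jak2V617F among intact clones, and 3 were higher among dKO clones. Without Jak2V617F GLUT1/3 WT clone 1, 4 were called with dKO in Jak2V617F, without any 1 of the 4 Jak2WT libraries 1 was called with dKO in Jak2WT, and without either Jak2WT GLUT1/3 WT clone 4 were called between the backgrounds with intact transporters. In the order given, 13.7%, 7.62%, 15.3% and 7.12% of all tested genes were called higher and 16.2%, 6.06%, 14.9% and 9.96% lower. The median log2 changes of the partners were -0.05, -0.05, 0.05 and 0.04, beside -0.02, 0.01, 0.01 and -0.02 for all tested genes.

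Of 22 erythroid genes known as targets of GATA1 and KLF1, 13 were tested. With dKO, 9 rose in Jak2V617F and 3 in Jak2WT, and 10 were higher with Jak2V617F among intact clones and 13 among dKO clones, with the others not passing the test. Over the alternatives these counts ran from 7 to 10, from 1 to 5, from 7 to 12 and from 12 to 13, and the count in Jak2WT was 1 without either Jak2WT GLUT1/3 WT clone or Jak2WT dKO clone 1. Of all tested genes, 13.7%, 7.62%, 15.3% and 7.12% were called higher in these comparisons. The median log2 differences were 1.47, 0.38, 1.25 and 2.73, beside -0.02, 0.01, 0.01 and -0.02 for all tested genes. Of the 13, 1 (Hba-a2) reached 1 FPKM only in Jak2V617F libraries and so had to differ between the backgrounds to be tested. Among the other 12, the counts were 8, 3, 10 and 12.

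Hbb-bs, an adult beta-globin gene, was at 0.0329 and 0.0751 FPKM in Jak2WT GLUT1/3 WT, 22.0 and 15.9 in Jak2WT dKO, 109.8 and 50.5 in Jak2V617F GLUT1/3 WT and 2209 and 1437 in Jak2V617F dKO. It rose with dKO in Jak2V617F by 4.56 (SE 0.36, adjusted p = 0.000451) and also in Jak2WT (adjusted p = 0.00191, and 0.0544 with voom), where the starting level under 0.1 FPKM lets the added 1 FPKM set the size, and no groups overlapped. Reads of the globin genes can be split among close paralogs, so single values of Hba-a1, Hba-a2, Hbb-bs and Hbb-bt are uncertain. Kel, a red cell surface protease and blood group antigen, went from 10.8 and 11.05 FPKM in Jak2V617F GLUT1/3 WT to 85.7 and 69.1 in dKO (2.71, SE 0.17, adjusted p = 0.000357). Hemgn, a nuclear regulator of red cell maturation, went from 18.2 and 13.7 FPKM to 63.9 and 54.4 (1.84, SE 0.14, adjusted p = 0.00039).

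Epor, the erythropoietin receptor, was higher with Jak2V617F among intact clones, at 7.16 and 5.63 FPKM against 3.87 and 3.68 (0.62, SE 0.13, adjusted p = 0.0105), and did not pass the test with dKO in Jak2V617F, at 7.77 and 6.54 (adjusted p = 0.426). Several defining red cell genes stayed low. Alas2, the erythroid enzyme of haem synthesis, reached at most 0.227 FPKM, and Slc4a1, the anion exchanger of the red cell membrane, at most 0.312. Car2 and Icam4 were listed at 0.

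**Figure D4:**
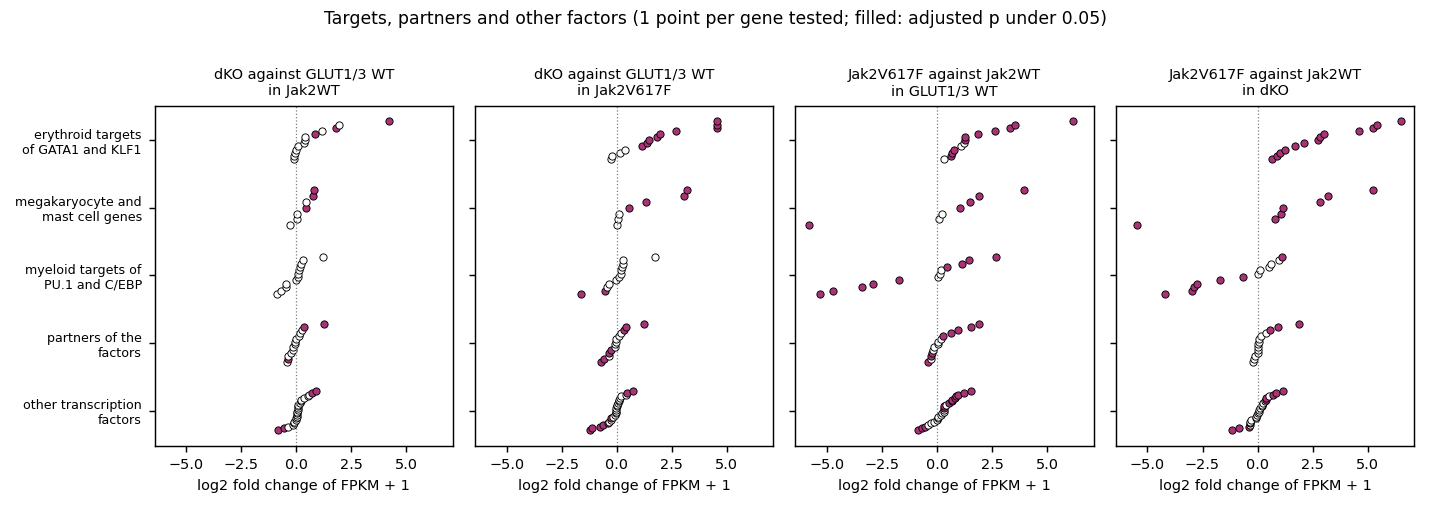
Difference of log2(FPKM + 1) (horizontal axes) of each tested gene in 5 lists (rows) and 4 comparisons (panels), filled where the adjusted p is under 0.05. In the erythroid row 13 of 13 points are filled to the right for Jak2V617F against Jak2WT in dKO, while the myeloid row has filled points on both sides in both background comparisons.

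The myeloid genes known as targets of PU.1 and the C/EBP factors held members that differed in both directions. Of 24 listed, 12 were tested, of which 4 were higher and 5 lower with Jak2V617F among intact clones, and 1 was higher and 6 lower among dKO clones. Of all tested genes, 15.3% were higher and 14.9% lower among intact clones, and 7.12% and 9.96% among dKO clones. Those lower in both were the granule genes Ltf and Ngp, the calgranulins S100a8 and S100a9 and the surface receptor Cd33. Without Jak2WT dKO clone 1 the 7 calls among dKO clones came down to 3, and that of Ngp there held in 9 of 16 alternatives and was lost without either clone of Jak2WT dKO (adjusted p up to 0.168), either clone of Jak2V617F GLUT1/3 WT or Jak2V617F dKO clone 1. Ngp, a neutrophil granule protein, was at 88.1 and 30.9 FPKM in Jak2WT GLUT1/3 WT and at 0.229 and 0.494 in Jak2V617F GLUT1/3 WT (-5.30, SE 0.72, adjusted p = 0.00251), and S100a9 was at 88.8 and 38.3 against 1.70 and 0.835 (-4.74, SE 0.67, adjusted p = 0.00294). Ltf, lactoferrin, was at 10.9 and 7.66 FPKM in Jak2WT dKO and at 0.0417 and 0.632 in Jak2V617F dKO (-2.96, SE 0.44, adjusted p = 0.00569).

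The 4 higher among intact clones were Itgb2, Fcgr3, the lysozyme gene Lyz2 and the oxidase subunit gene Ncf4. That of Lyz2 held in 11 of 16 alternatives and was lost without Jak2WT GLUT1/3 WT clone 3 (adjusted p = 0.182), without either Jak2V617F GLUT1/3 WT clone, with voom and without a filter. Itgb2, the shared beta chain of leukocyte integrins, was at 79.4 and 68.6 FPKM in Jak2V617F GLUT1/3 WT against 33.6 and 32.0 (1.15, SE 0.14, adjusted p = 0.00166). Fcgr3, an Fc receptor, was at 6.40 and 4.89 FPKM there against 0.0145 and 0.0664 (2.67, SE 0.28, adjusted p = 0.00108), and fell with dKO to 0.613 and 1.85 (by 1.62, SE 0.28, adjusted p = 0.00556, and 0.0527 at a pseudocount of 0.1). Fcgr3 was the 1 gene of the 12 to reach 1 FPKM only in Jak2V617F libraries, and was tested only because it was high there. Along with Fcgr3, 1 other gene fell with dKO in Jak2V617F, Ncf1, a subunit of the phagocyte oxidase (from 13.4 and 14.8 FPKM to 8.82 and 9.80, adjusted p = 0.00413), and without Jak2V617F dKO clone 3 the number called went from 2 to 4. The share of all tested genes that fell was 16.2% in Jak2V617F, near 2 of 12, and in Jak2WT 7.62% rose and 6.06% fell. With dKO in Jak2WT, 0 of 12 were called by limma, with 2 at an unadjusted p under 0.05, 0 with voom and 1 with the clone number as a block. The medians of the 12 in the 4 comparisons were 0.14 and 0.09 with dKO in Jak2V617F and Jak2WT, and 0.08 and -0.31 with Jak2V617F among intact and dKO clones, beside -0.02, 0.01, 0.01 and -0.02 for all tested genes. Without Fcgr3, the 11 others had medians of 0.19, 0.09, 0.03 and -0.65, with 1 fallen with dKO in Jak2V617F, 3 higher and 5 lower with Jak2V617F among intact clones and 1 higher and 6 lower among dKO clones.

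Of 16 megakaryocyte and mast cell genes bound by GATA factors, 7 were tested, of which 3 reached 1 FPKM only in Jak2V617F libraries, 2 of them in 1 group only. These 3 were tested only because they were high there, and had to differ. With dKO, 4 rose in Jak2V617F and 3 in Jak2WT, and with Jak2V617F, 4 were higher and 1 lower among intact clones and 6 higher and 1 lower among dKO clones. The 3 in Jak2WT came down to 0 without either Jak2WT GLUT1/3 WT clone or Jak2WT dKO clone 1 and to 1 without dKO clone 3, and the 4 in Jak2V617F came down to 2 without any 1 of the Jak2WT libraries or Jak2V617F GLUT1/3 WT clone 3. Among dKO clones, 4 were called in all without either Jak2WT dKO clone. Among the 4 others, 1 rose with dKO in Jak2V617F and 3 in Jak2WT, and 3 were higher and 1 lower with Jak2V617F among intact and among dKO clones, where 13.7%, 7.62%, 15.3% and 7.12% of all tested genes were called higher and 14.9% and 9.96% lower in the last 2. Their median log2 differences in this order were 0.06, 0.60, 1.25 and 0.93, against 0.57, 0.43, 1.02 and 1.17 with the 3 and -0.02, 0.01, 0.01 and -0.02 for all tested genes. Itga2b, the platelet integrin CD41, was at 62.2 and 61.3 FPKM in Jak2WT GLUT1/3 WT and at 169 and 179 in Jak2V617F GLUT1/3 WT (1.48, SE 0.082, adjusted p = 0.000101), and Gp9, of the platelet glycoprotein Ib complex, at 1.46 and 1.90 against 8.43 and 9.52 (1.90, SE 0.13, adjusted p = 0.000204). Cpa3, the mast cell carboxypeptidase, went the other way, at 94.8 and 78.2 FPKM against 0.554 and 0.531 (-5.82, SE 0.46, adjusted p = 0.000438).

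Among 35 other haematopoietic transcription factors, 24 were tested. With Jak2V617F, 10 were higher and 3 lower among intact clones, and 5 higher and 4 lower among dKO clones. With dKO, 2 rose and 6 fell in Jak2V617F, and 2 rose and 2 fell in Jak2WT. Of all tested genes, 15.3% were higher and 14.9% lower, 7.12% and 9.96%, 13.7% and 16.2%, and 7.62% and 6.06% in the same order, so that the counts with dKO in Jak2WT lay near these shares. With 1 library left out, the number called in Jak2WT ran from 0 to 6, with 0 or 1 when it was a Jak2WT library. That between the backgrounds ran from 6 to 16 among intact clones, the least without Jak2WT GLUT1/3 WT clone 1, and from 1 to 10 among dKO clones, the least without Jak2WT dKO clone 1. Their median log2 differences were 0.30 and 0.06 with Jak2V617F and -0.04 and 0.06 with dKO, beside 0.01, -0.02, -0.02 and 0.01 for all tested genes. Cebpb, the C/EBP factor of emergency granulopoiesis, differed from Cebpe in direction, at 22.6 and 22.2 FPKM in Jak2V617F GLUT1/3 WT against 8.81 and 9.54 in Jak2WT (1.20, SE 0.18, adjusted p = 0.00357). Id2, an inhibitor of E proteins, was at 16.8 and 16.6 FPKM against 5.35 and 4.70 (1.56, SE 0.23, adjusted p = 0.00352).

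Myb, which maintains proliferating progenitors, fell with dKO in Jak2V617F from 27.8 and 34.8 FPKM to 15.1 and 21.1 (by 0.77, SE 0.19, adjusted p = 0.0204), a call lost without Jak2V617F GLUT1/3 WT clone 3 (0.0962) or dKO clone 1. Klf6, a relative of Klf1, fell with dKO in Jak2V617F from 16.5 and 14.1 FPKM to 6.68 and 6.15 (by 1.13, SE 0.17, adjusted p = 0.00319), where Klf1 rose. Klf6 fell in Jak2WT as well, where Klf1 did not pass, from 31.8 and 25.7 FPKM to 18.2 and 13.1 (-0.85, SE 0.17, adjusted p = 0.0203). That call held in 12 of 16 alternatives. Id1, the relative of Id2, rose with dKO in Jak2V617F from 96.1 and 78.4 FPKM to 158 and 137 (0.76, SE 0.14, adjusted p = 0.00886). In Jak2WT it rose too, from 49.8 and 59.5 FPKM to 82.8 and 96.6 (0.71, SE 0.14, adjusted p = 0.0230), a call that held in 11 of 16 alternatives. Hoxa9, Meis1, Bcl11a, Nfia and Maf were listed at 0 in all 8 libraries.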

How the data were processed

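RNA of 8 libraries of 32D clones (2 for each of 4 groups) was sequenced from poly(A) RNA in pairs. Per the labels, the authors cleaned reads with fastp 1.0.1, aligned them with HISAT2 2.2.1 to mm39 and counted them with featureCounts 2.0.6, and the deposited values are FPKM per gene. The annotation version, the strand setting and the library total behind FPKM are not given in the sources used here. FPKM times gene length was a whole multiple of 1 step per library (largest deviation 3.61e-09 reads), so reads per gene were recovered, for depth and as an alternative. Clones of a group differed beyond counting noise, at a mean chi-square of 7.88 to 34.6 per gene, and were kept as 2 replicates. Groups came from the labels, with 0 columns left out.

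Genes at 1 FPKM or more in 2 or more of the 8 libraries (11818 of 56748) were fitted on log2(FPKM + 1) with limma 3.58.1 in R 4.3.3, with 1 mean for each of 4 groups, a trend in the spread, 4 residual and 3.34 prior degrees of freedom, and Benjamini-Hochberg adjustment over all tested genes at 0.05. An exact permutation test of 2 against 2 cannot go below 0.333 and was not used. On simulated data of this design for dKO against GLUT1/3 WT in Jak2V617F, 180 of 200 genes changed 2-fold were called, with 21 others among 11818 genes. The simulation set the spread between clones (SD over mean) to 0.1 in every group. Some genes here spread more, such as Cebpe in Jak2V617F dKO (SD 1.85 on a mean of 5.50 FPKM). The recovery therefore does not describe such genes, nor changes under 2-fold. The members and gene lists were chosen with earlier results of these data known. Of a list, any gene may be named, and in each comparison of 2 groups up to 3 called genes with the largest difference in each direction and clones apart. For Gata1 and Spi1 the 5 most correlated genes are named. Sequences were read from RefSeq, placed in GRCm39 by exact match and searched with Python 3.11.15. Ahsp matched no row of the table. Some genes of the lists, and 1 transgene that all groups share, are not reported here.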

Additional observations from a re-analysis of the deposited data

Results flagged for a closer look

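The change of Cebpe with the loss of GLUT1/3 differed between the Jak2 backgrounds in the test of the difference itself (limma interaction), by -0.99 on the log2 scale (adjusted p = 0.0484). This call held in only 3 of 15 alternatives. All 4 dKO clones lay below the intact clones of their own background, and the change was -1.51 in Jak2V617F and -0.52 in Jak2WT. The adjusted p over the 15 alternatives ran from 0.0122 to 0.161.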

How the results depend on the processing

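Of 40 results for single genes of the 8 tested factors, 12 kept their direction and their side of the threshold under every alternative run, and over all 632 values 528 did, 67 lost and 19 gained a call and 18 changed sign. Cebpe was called under all 16 alternatives with dKO in Jak2V617F and in both comparisons of the backgrounds, and Gata1 and Gfi1b were between the backgrounds with intact transporters. The 2 clones per group limit the rest, since a fit of only the groups compared or a left-out clone changed most counts below.

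Of the 8 factors, 6 were called with dKO in Jak2V617F but 1 in a fit of only the groups compared, and 3 to 6 when a library was left out. In Jak2WT 2 were called, with 1 without a filter, 4 with voom, 4 in a fit of only the groups compared, and 0 to 3 with a library left out. Between the backgrounds it was 4 with intact transporters (3 to 5 with a library left out). Among dKO clones 5 were called, with 3 without a filter, 2 in a fit of only the groups compared and 1 to 7 with a library left out. For the interaction 1 was called, with 0 at a pseudocount of 0.1, without a filter, with either scaling or without the trend, 2 with voom, and 0 to 2 with a library left out.

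Over all genes, 3533 were called with dKO in Jak2V617F (1617 in a fit of only the groups compared, 2131 to 2985 with a library left out) and 1617 in Jak2WT (714 without a filter, 2615 with voom, 110 to 1974). Between the backgrounds 3577 were called with intact transporters (1583 to 3969 with a library left out) and 2019 among dKO clones (1028 in a fit of only the groups compared, 620 to 1992), and 1256 in the interaction (346 without a filter, 1908 with voom, 5 to 1256).

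Sign changes came in differences that were not called. Klf1 between the backgrounds with intact transporters turned to -0.063 with equal summed FPKM and -0.050 with voom, and ran from -0.18 to 0.34 with a library left out. In the interaction, equal summed FPKM and voom gave 0.16 and 0.14 for Gfi1b, 0.064 and 0.034 for Gata2 and 0.10 and 0.074 for Tal1, and scaling by the median ratio 0.0084 for Gfi1b. With a library left out these ran from -0.21 to 0.15, -0.35 to 0.091 and -0.20 to 0.022. With dKO, Gata2 in Jak2V617F ran from -0.41 to 0.025 and Spi1 in Jak2WT from -0.11 to 0.023.

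Equal summed FPKM and voom moved the median of all genes between the backgrounds with intact transporters to -0.12 and -0.10, and that of the interaction to 0.12 and 0.11. The share of calls that were higher moved with them, from 45.7% to 60.2% and 59.3% with dKO in Jak2V617F, from 55.7% to 33.9% and 38.9% in Jak2WT, from 50.7% to 29.4% and 34.4% between the backgrounds with intact transporters, and from 44.4% to 75.0% and 69.9% in the interaction.

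Deviations of same-numbered clones correlated at -0.254 to 0.152, so the numbers pair nothing. With the replicate block, 0 of the 8 factors were called in the interaction (Cebpe, adjusted p = 0.0681), against 1 without it. The 16 alternatives were also run for the lists, chosen after seeing the data, where 1222 of 1424 values of named genes kept their call, 202 lost it and 0 changed sign. List counts without the genes at 1 FPKM only in Jak2V617F libraries were also added after seeing the data.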
